A study of Mus musculus with 31 samples.

Results

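The calcium pumps are the P-type ATPases that move calcium out of the cytosol, and 8 of their genes were taken by symbol from the 55379 genes counted in mouse mammary gland. They are the pumps of the endoplasmic reticulum (SERCA; *Atp2a2* and *Atp2a3*), of the plasma membrane (PMCA; *Atp2b1*, *Atp2b2*, *Atp2b3* and *Atp2b4*) and of the Golgi apparatus (SPCA; *Atp2c1* and *Atp2c2*). The glands came from 31 C57BL/6J dams on lactation day 10. From 2 weeks before mating the dams ate a breeder diet with 4 mg/kg folic acid (FA) or an FA diet with 24 mg/kg, and from embryonic day 13 they received a daily intraperitoneal injection of saline or of 20 mg/kg fluoxetine, a selective serotonin reuptake inhibitor. By the sample labels, 8 dams were in the breeder + saline group, 7 in breeder + fluoxetine, 8 in FA + saline and 8 in FA + fluoxetine, and the published methods give other sizes for the fluoxetine groups. Whether a fluoxetine library carries the wrong diet label cannot be told from the files. Each dam gave 1 library of polyadenylated RNA from whole gland, with 15412542 to 36000439 counts in total.

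A milk-secreting cell takes up calcium from the blood side and passes it into milk while its cytosol stays low in free calcium. SERCA pumps refill the endoplasmic reticulum, SPCA pumps load the Golgi apparatus and secretory vesicles, where calcium joins casein micelles, and PMCA pumps carry calcium across the plasma membrane. PMCA2, the product of *Atp2b2*, sits on the apical membrane facing milk and is known as a main route of calcium into mouse milk, and SPCA2, the product of *Atp2c2*, is a secretory-cell form that also binds the calcium channel Orai1.

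Of the 8 genes, 7 passed the filter on low counts and were tested. The exception was *Atp2b3*, a PMCA known mainly from brain, with 26 counts over the 31 libraries. By counts the family was led by *Atp2b2* with 190214 counts and *Atp2c2* with 163888, which were 44.4% and 38.3% of all counts of the 8 genes. *Atp2c1* had 40683 counts, *Atp2a2* 24269, *Atp2b1* 4671, *Atp2b4* 2466 and *Atp2a3* 1824. The total for *Atp2a3* is low enough that counting error adds to the spread between dams.

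A pair of libraries stood apart before any comparison. The 20 most abundant genes held 43.1% of the counts in FA + fluoxetine replicate 3 and 61.7% in breeder + fluoxetine replicate 13, against 71.0% to 82.0% in the other 29. In FA + fluoxetine replicate 3, the summed level of 9 secretory luminal markers was 57900 TMM-normalized CPM, below the 468000 to 958000 of the other 29. Where a gene is named as the most abundant of a marker list, it has the highest mean CPM, not per kilobase, here *Wap*. The summed fibroblast markers (most abundant gene *Col3a1*) stood at 719 CPM in this dam against 40.5 to 232 CPM, the adipocyte markers (*Fabp4*) at 777 against 144 to 383 CPM, and the macrophage markers (*C1qa*) at 138 against 30.1 to 55.1 CPM. The T cell (*Lck*) and platelet (*Itga2b*) markers summed to 4.54 and 12.4 CPM in this dam, also above the other 29, and the luminal keratin markers (*Elf5*), at 462 CPM, lay below their 662 to 1020 CPM. The endothelial (*Kdr*), B or plasma cell (*Jchain*), neutrophil (*Csf3r*), red blood cell (*Hbb-bs*) and myoepithelial sums lay within the range of the other 29 at 50.3, 75.5, 0.594, 49.6 and 458 CPM. Of 14 marker lists, 6 lay above the range of the other 29 libraries in this dam, 3 below it and 5 within it. In breeder + fluoxetine replicate 13 the secretory markers summed to 313000 CPM, and 12 of the 14 lists lay within the range of the other 29. The results that follow include these libraries unless they are said to be without both.

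The pumps of FA + fluoxetine replicate 3 did not move as a block. *Atp2b2* was at 19.7 CPM, *Atp2c2* at 44.9 CPM and *Atp2c1* at 15.6 CPM in this dam, each the lowest of the 31 libraries. *Atp2b1* was at 14.1 CPM, the highest of the 31, and *Atp2a2*, at 28.5 CPM, lay among the other dams. These ranks hold for TMM-normalized CPM. The TMM factor of this library was 3.04, against 0.716 to 1.57 in the others. Without that factor its pumps would stand higher against the other dams. *Atp2c1* would no longer be the lowest and *Atp2a2* would be the highest, whereas *Atp2b2* and *Atp2c2* would stay the lowest. In whole gland, fewer secretory cells and less RNA per secretory cell cannot be told apart, and the part of cell composition in these values was not tested. In breeder + fluoxetine replicate 13, *Atp2b2* was at 286 CPM and *Atp2c2* at 243 CPM, both inside the range of its group.

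Levels were compared between genes per kilobase of merged exons. *Atp2c2* was the most abundant pump at 74.2 CPM per kb, averaged over 31 libraries, and it ranked 141 of 14326 genes by this measure. *Atp2b2* followed at 17.5 CPM per kb and rank 533, *Atp2c1* at 4.68 and rank 1975, and *Atp2a2* at 2.82 and rank 3165. *Atp2a3* (0.472 CPM per kb), *Atp2b1* (0.376) and *Atp2b4* (0.266) were far lower, and *Atp2b3* was at 0.00567. *Atp2c2* exceeded *Atp2b2* within each of 31 libraries, *Atp2b2* exceeded *Atp2c1* within each of 31, and *Atp2c1* exceeded *Atp2a2* in 30. The step from *Atp2a2* down to *Atp2a3*, a 5.98-fold difference in means, was the only one among the 7 tested pumps where the ranges of the neighbours did not overlap over all 31 libraries. In the other 29 libraries, *Atp2c2* (44.1 to 97.4 CPM per kb) and *Atp2b2* (8.30 to 27.7) did not overlap either. *Atp2a3* was above *Atp2b1* in 20 of 31 libraries and *Atp2b1* above *Atp2b4* in 25, so the order of these low genes was within their spread.

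**Figure D1:**
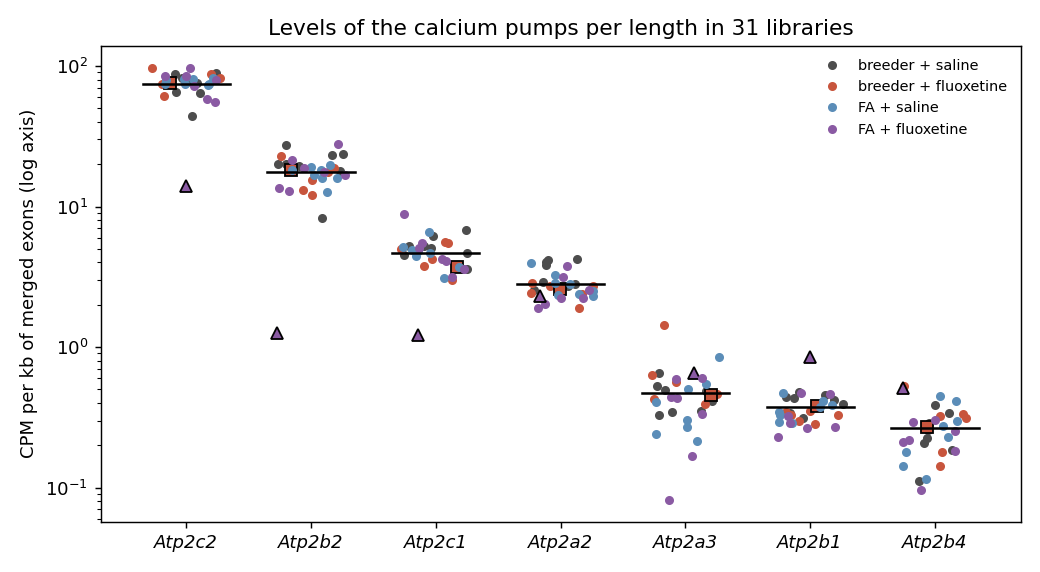
Level of each tested pump per kilobase of merged exons (CPM per kb, log axis) in the 31 libraries, with points coloured by group and a line at the mean over all libraries. The triangle is FA + fluoxetine replicate 3 and the square breeder + fluoxetine replicate 13; *Atp2c2* and *Atp2b2* lead at means of 74.2 and 17.5 CPM per kb, and the triangle lies below all other points for *Atp2c2*, *Atp2b2* and *Atp2c1*.

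The annotated length bears on this order. *Atp2c2* has 3222 bases both as merged exons and as longest transcript, whereas *Atp2b2* has 15790 merged and 9492 in its longest transcript, and *Atp2c1* has 12888 and 6132. By the longest transcript *Atp2b2* stood at 29.2 CPM per kb and *Atp2c1* at 9.85. The first 4 places of the order were the same, and *Atp2b1* (0.733) moved ahead of *Atp2a3* (0.543). By this length *Atp2b2* exceeded *Atp2c1* in 30 of 31 libraries. In the 29 libraries *Atp2b2* then spanned 13.8 to 46.0 CPM per kb, which overlapped the 44.1 to 97.4 of *Atp2c2*. The counts do not say which transcripts of a gene were present.

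Among the 8 pumps, a single gene led each class. *Atp2b2* made up 96.5% ± 0.929 (SD, n = 29) of the PMCA level per length without the libraries that stood apart. It made up 47.9% in FA + fluoxetine replicate 3, where *Atp2b1* reached 32.6% and *Atp2b4* 19.5%, against at most 4.98% and 2.53% in the 29. *Atp2c2* made up 93.9% ± 2.02 (SD, n = 31) of the SPCA level, from 86.3% in FA + fluoxetine replicate 2 to 96.5% in FA + fluoxetine replicate 6. *Atp2a2* made up 85.5% ± 7.32 (SD, n = 31) of the summed level of *Atp2a2* and *Atp2a3*, which leaves out the muscle pump *Atp2a1* (15.6 CPM per kb on average), with the lowest share, 57.2%, in breeder + fluoxetine replicate 9 and the highest, 96.5%, in FA + fluoxetine replicate 10.

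The comparison of fluoxetine with saline asked which genes differed with the drug, averaged over both diets. By the quasi-likelihood test of edgeR, adjusted over 14362 genes by Benjamini-Hochberg, 0 of 7 tested pumps passed an FDR of 10%, against 0.0209% of all genes (3 genes). The likelihood ratio test and DESeq2 also called 0 pumps, against 0.313% and 0.487% of all genes (45 and 70 genes), and 1 pump, *Atp2a2*, had an unadjusted p of 0.05 or below, against 9.92% of all genes. Of the 7 log2 fold changes 5 were below 0, against 46.5% of all genes, with a median of -0.09 beside 0.02 over all genes. No sign of the 7 changed with DESeq2 size factors, RLE, upper quartile or removal of the 20 most abundant genes, whereas *Atp2a3*, *Atp2b1*, *Atp2b4* and *Atp2c2* changed sign under other settings (replicate block, a single diet, or libraries left out). For FA, 0 of 7 pumps passed the FDR (0.0% of all genes) and 0 had an unadjusted p of 0.05 or below (5.08% of all genes), and the same counts held for the likelihood ratio test and DESeq2. Of the 7 log2 fold changes for FA 6 were below 0, against 46.1% of all genes. For the interaction of fluoxetine and FA, the quasi-likelihood test, the likelihood ratio test and DESeq2 called 0 of 7 pumps (0.0% of all genes), with 0 at an unadjusted p of 0.05 or below (3.84% of all genes). A count of 0 does not show that the pumps were alike in the 4 groups.

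**Figure D2:**
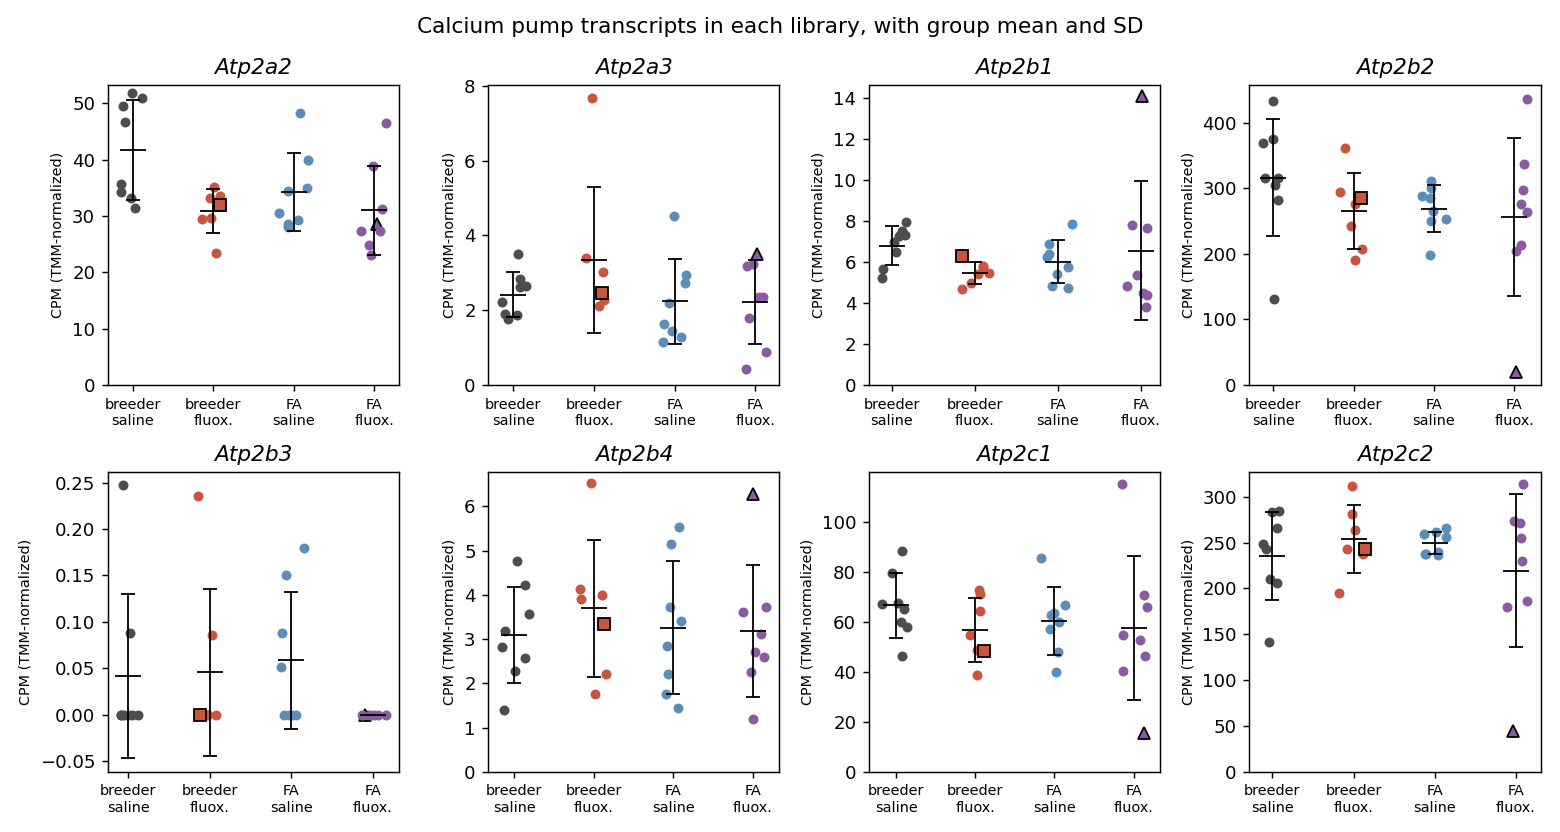
TMM-normalized CPM of the 8 pumps in each library (points), with the mean and SD of each group (bars); each panel has its own linear axis. The triangle is FA + fluoxetine replicate 3 and the square breeder + fluoxetine replicate 13; for *Atp2a2* the 7 breeder + fluoxetine dams lie between 23.4 and 35.1 CPM and overlap the lower part of breeder + saline, which spans 31.4 to 51.8 CPM.

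*Atp2a2* (ENSMUSG00000029467, chr5:122591575-122640903, minus strand, GRCm39) encodes SERCA2, the housekeeping calcium pump of the endoplasmic reticulum. It ranged from 31.4 to 51.8 CPM in breeder + saline with a median of 41.2 (n = 8), and from 23.4 to 35.1 CPM with a median of 31.9 in breeder + fluoxetine (n = 7). In FA + saline it ranged from 28.1 to 48.2 CPM with a median of 32.4 (n = 8), and in FA + fluoxetine from 23.1 to 46.5 CPM with a median of 27.9 (n = 8). The groups overlapped on both diets, yet 7 of 7 breeder + fluoxetine dams lay below the breeder + saline median and 6 of 8 FA + fluoxetine dams below the FA + saline median. The mean was 38.0 ± 8.59 CPM (SD, n = 16) under saline and 30.9 ± 6.13 (SD, n = 15) under fluoxetine.

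For fluoxetine, *Atp2a2* had a log2 fold change of -0.29 (SE 0.106, 95% interval -0.50 to -0.07), with an unadjusted p of 0.00998 and an adjusted p of 0.406 over all genes. It therefore did not pass the FDR. Within the breeder diet the log2 fold change was -0.43 (edgeR adjusted p = 1.0, unadjusted p = 0.00768), and within the FA diet it was -0.15 (adjusted p = 0.762). In the contrast within the breeder diet, 4.39% of the tested transcriptome had unadjusted p-values at or under 0.05. The difference between the diets, tested as the interaction, was 0.29 (SE 0.211, edgeR adjusted p = 0.977), so the effect was not shown to differ between them. Without both libraries that stood apart the log2 fold change for fluoxetine was -0.28 (edgeR adjusted p = 0.410, unadjusted p = 0.0135). Over all alternatives the adjusted p of *Atp2a2* for fluoxetine lay between 0.179 and 1.0. For FA it was -0.14 (SE 0.106, adjusted p = 0.943).

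Markers of other cells were set beside *Atp2a2*. The 9 secretory markers summed to 726000 ± 124000 CPM under saline and 632000 ± 203000 under fluoxetine, and to 700000 ± 83100 under fluoxetine without the libraries that stood apart. Of the 9, all 9 were lower under fluoxetine, against 46.5% of all genes. By the quasi-likelihood test 1 had an unadjusted p of 0.05 or below, against 9.92% of all genes. Without both libraries 8 were lower and 2 had such a p, against 9.47% of all genes at that p. Genes of 1 list can vary together across dams, so counts within a list are not of separate observations. The 6 myoepithelial markers (most abundant gene *Acta2*) summed to a mean of 444 CPM under saline and 360 CPM under fluoxetine, with 5 of 6 lower and 3 of 6 at an unadjusted p of 0.05 or below, against 9.92% of the tested transcriptome. The 5 fibroblast markers summed to 119 CPM under saline and 127 under fluoxetine with 0 of 5 at that p by the quasi-likelihood test, and to 82.3 CPM under fluoxetine without both libraries that stood apart, with 5 of 5 lower and 4 of 5 at that p, against 9.47% of all genes in that fit. The 5 red blood cell markers summed to 86.9 and 109 CPM and were higher under fluoxetine in 5 of 5, with 1 at that p, and the 5 adipocyte markers summed to 236 and 298 CPM, with 3 of 5 higher and 1 at that p. The adipocyte sum was 259 CPM under fluoxetine without both libraries, with 3 of 5 lower and 0 at that p by the quasi-likelihood test. The 8 skeletal muscle markers (most abundant gene *Myh4*) averaged 916 CPM under saline and 885 CPM under fluoxetine, and ranged from 0.664 to 6980 CPM between dams. By diet, from saline to fluoxetine, the red blood cell sums went from 65.1 to 116 CPM on the breeder diet. On the FA diet they went from 109 to 103 CPM. In the same order, the muscle sums averaged 653 ± 678 and 1200 ± 2560 CPM (SD) on the breeder diet. On the FA diet the muscle sums averaged 1180 ± 1690 and 614 ± 1400 CPM. Each muscle SD exceeded its mean, so single dams weigh heavily in these means and no direction is read from them. For the interaction 5 of 5 red blood cell and 8 of 8 muscle markers were below 0, against 46.0% of all genes. By the quasi-likelihood test 1 and 0 of them were at that p, against 3.84% of all genes, and 0 passed the FDR. None of the markers on these 6 lists was at 0 over all libraries. Their part in the *Atp2a2* values was not tested. The muscle pump SERCA1, *Atp2a1*, is on the muscle list and ranged from 0 to 707 CPM between dams.

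*Atp2a3* (ENSMUSG00000020788, chr11:72851990-72883870, plus strand) encodes SERCA3, a pump known from blood, endothelial and some epithelial cells. Its median was 2.42 CPM in breeder + saline (1.76 to 3.50), 2.48 in breeder + fluoxetine (2.11 to 7.66), 1.90 in FA + saline (1.15 to 4.53) and 2.35 in FA + fluoxetine (0.437 to 3.50). The groups overlapped throughout, and the extremes were breeder + fluoxetine replicate 9 at 7.66 CPM and FA + fluoxetine replicate 10 at 0.437 CPM, a 17.5-fold span. The log2 fold change was 0.22 for fluoxetine (SE 0.236, 95% interval -0.26 to 0.70) and -0.34 for FA (SE 0.236, adjusted p = 0.935). Both values leaned on breeder + fluoxetine replicate 9, without which they were 0.04 and -0.17. They were 0.19 and -0.43 without both libraries that stood apart.

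*Atp2b2* (ENSMUSG00000030302, chr6:113720766-114021022, minus strand) ranged from 131 to 434 CPM in breeder + saline with a median of 316, and from 190 to 361 CPM in breeder + fluoxetine with a median of 276. In FA + saline it ranged from 199 to 311 CPM with a median of 276, and in FA + fluoxetine from 19.7 to 437 CPM with a median of 270. The groups overlapped, and the lowest dams were FA + fluoxetine replicate 3 and, at 131 CPM, breeder + saline replicate 3. The log2 fold change for fluoxetine was -0.16 (SE 0.209, 95% interval -0.59 to 0.26, adjusted p = 0.830), and -0.08 without both libraries that stood apart. For FA it was -0.14 (SE 0.209, adjusted p = 0.987) with a 95% interval of -0.57 to 0.28. This FA value was -0.05 without both libraries that stood apart. With the replicate block the log2 fold change was -0.62 for fluoxetine (edgeR unadjusted p = 0.0424, adjusted p = 0.708) and 0.14 for FA.

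The other PMCA genes were minor in level. *Atp2b1* (ENSMUSG00000019943, chr10:98750268-98862488, plus strand), which encodes the widely expressed PMCA1, averaged 6.80 ± 0.949 CPM in breeder + saline and 5.49 ± 0.535 in breeder + fluoxetine (SD, n = 8 and 7). It averaged 6.02 ± 1.06 CPM in FA + saline (n = 8), and in FA + fluoxetine it ranged from 3.82 to 14.1 CPM with a median of 5.09 (n = 8). All 7 breeder + fluoxetine dams lay below the breeder + saline median of 7.12 CPM, with overlapping ranges, whereas on the FA diet 5 of 8 lay below the saline median and replicate 3 lay above all others.

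The fluoxetine value of *Atp2b1* rested on that dam. With all libraries its log2 fold change for fluoxetine was -0.09 (SE 0.138, unadjusted p = 0.522, adjusted p = 0.867). Without FA + fluoxetine replicate 3 it was -0.23 (unadjusted p = 0.0377, adjusted p = 0.517), and without both libraries that stood apart it was -0.24 (unadjusted p = 0.0342, adjusted p = 0.495). Neither value passed the FDR (adjusted p over the alternatives 0.495 to 1.0), and without both libraries *Atp2a2* and *Atp2b1* were the 2 of 7 pumps at an unadjusted p of 0.05 or below, against 9.47% of all genes in that fit.

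*Atp2b4* (ENSMUSG00000026463, chr1:133627195-133728923, minus strand) encodes PMCA4 and ranged from 1.19 to 6.52 CPM over all dams, with a mean of 3.18 ± 1.27 under saline (SD, n = 16) and 3.42 ± 1.48 under fluoxetine (SD, n = 15). Its log2 fold change for fluoxetine was 0.11 (SE 0.214, 95% interval -0.33 to 0.54), and 0.00255 without both libraries that stood apart. For FA it was -0.06, and -0.19 without both. *Atp2b3* (ENSMUSG00000031376, chrX:72546384-72614614, plus strand) had counts in 8 libraries, 9 counts in breeder + saline, 8 in breeder + fluoxetine, 9 in FA + saline and 0 in FA + fluoxetine. A count of 0 over the 8 FA + fluoxetine libraries allows up to 3 counts, or 0.0129 CPM, for counting error only. It was fitted only without the filter on low counts, where its log2 fold change was -1.73 for fluoxetine (adjusted p = 0.316, unadjusted p = 0.0170), -1.45 for FA (adjusted p = 0.474, unadjusted p = 0.0272) and -3.65 for the interaction (adjusted p = 0.447, unadjusted p = 0.0135). With a group at 0 these fitted values depend on the prior count and bound nothing.

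*Atp2c1* (ENSMUSG00000032570, chr9:105280738-105404518, minus strand) encodes SPCA1, the Golgi calcium and manganese pump found in most cells. It ranged from 46.1 to 88.4 CPM in breeder + saline (median 66.1), from 38.7 to 72.5 in breeder + fluoxetine (median 54.5), from 39.7 to 85.5 in FA + saline (median 61.2) and from 15.6 to 115 in FA + fluoxetine (median 53.5). The groups overlapped, and both extremes, replicates 2 and 3, belonged to FA + fluoxetine. The log2 fold change was -0.15 for fluoxetine (SE 0.161, 95% interval -0.48 to 0.18) and -0.06 for FA (SE 0.161, adjusted p = 0.992). These were -0.06 and -0.02 without both libraries that stood apart, and without FA + fluoxetine replicate 2 they were -0.26 and -0.17.

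*Atp2c2* (ENSMUSG00000034112, chr8:120426748-120484456, plus strand) ranged from 142 to 285 CPM in breeder + saline with a median of 246, and from 195 to 312 CPM in breeder + fluoxetine with a median of 243. In FA + saline the 8 dams lay between 237 and 266 CPM with a median of 248, and in FA + fluoxetine the 8 dams lay between 44.9 and 314 CPM with a median of 243. The medians of the 4 groups were close, and the spread was not: the SD was 4.97% of the mean in FA + saline and 38.2% in FA + fluoxetine, where 4 of 8 dams lay below the lowest FA + saline dam and 3 of 8 above the highest. Without replicate 3 the SD in FA + fluoxetine was 20.0% of the mean, over 180 to 314 CPM, beside 20.5% in breeder + saline. The difference in spread was not tested. The log2 fold change was -0.04 for fluoxetine (SE 0.150, 95% interval -0.34 to 0.26, adjusted p = 0.955) and 0.04 without both libraries that stood apart. For FA it was -0.06 (SE 0.150, adjusted p = 0.990).

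For the interaction, *Atp2b1* had a log2 value of 0.44 (SE 0.275, unadjusted p = 0.122) and the other 6 tested pumps had unadjusted p-values from 0.183 to 0.671. The adjusted p-values of the 7 pumps lay between 0.977 and 0.982. The 95% intervals were wide, from -1.43 to 0.49 for *Atp2a3* and from -0.67 to 1.03 for *Atp2b2*. The interval of *Atp2a2*, -0.14 to 0.72, was the narrowest of the 7. Single dams moved these values. *Atp2b1* was at 0.16 without FA + fluoxetine replicate 3, and *Atp2b2* fell from 0.18 to 0.02 without FA + fluoxetine replicate 5. Without breeder + fluoxetine replicate 9, *Atp2a3* went from -0.47 to -0.13 and *Atp2b4* from -0.27 to -0.08. *Atp2a2* went from 0.29 to 0.18 without FA + fluoxetine replicate 2, and to 0.37 without FA + saline replicate 4. With the replicate block *Atp2a3* was at -0.00805 and *Atp2b4* at 0.32. Without both libraries that stood apart, *Atp2b1* was at 0.20, *Atp2b2* at 0.38, *Atp2a3* at -0.66, *Atp2b4* at -0.52 (from -0.27), *Atp2c1* at 0.27 (from 0.16) and *Atp2c2* at -0.15 (from -0.29).

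Reads of some pumps can be mixed with those of neighbours, since the sources used here do not state the strand setting of the counting. On the opposite strand, *Atp2a2* shares bases with the span of *Anapc7* (7175 counts), *Atp2c1* with *Aste1* (1330 counts) and *Atp2c2* with *Meak7* (2153 counts). On its own strand the span of *Atp2b2* holds the long noncoding *Gm44167* with 3819 counts. Pumps of a class are also similar in coding sequence, and how reads shared by paralogs were counted was not tested.

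How the pumps varied together was examined across dams. Correlations of log2 CPM after subtraction of the group means were computed for 21 pairs of 7 pumps over 31 libraries, with two-sided permutation within groups (100000 resamples). Of the pairs, 4 passed an FDR of 10% over the 21. In the other 29 libraries 4 also passed, of which 2 were shared. *Atp2b2* and *Atp2c2* had the strongest relation, with Pearson's r = 0.934 (permutation p = 8e-05, adjusted p = 0.00168) and Spearman's rho = 0.617 (permutation p = 0.00216, adjusted p = 0.0454). It was 0.682 without the 2 libraries farthest from the *Atp2b2* median, which were FA + fluoxetine replicate 3 and breeder + saline replicate 3. Without both libraries that stood apart it was 0.721, so the apical pump and the secretory Golgi pump were high and low in the same dams with or without them.

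*Atp2a3* and *Atp2b4* also varied together, with r = 0.507 (permutation p = 0.00797, adjusted p = 0.0418) and rho = 0.473 (permutation p = 0.0130, adjusted p = 0.0907). This r was 0.533 without the 2 libraries farthest from the *Atp2a3* median and 0.461 without both that stood apart. *Atp2b1* ran against the secretory pair, with r = -0.754 to *Atp2c2* (permutation p = 0.00235, adjusted p = 0.0247, rho = -0.512, permutation p = 0.00886, adjusted p = 0.0907) and r = -0.713 to *Atp2b2* (permutation p = 0.00794, adjusted p = 0.0418, rho = -0.379, permutation p = 0.0494, adjusted p = 0.207). Without the 2 libraries farthest from the *Atp2b1* median these were -0.416 and -0.299, and without both that stood apart they were -0.413 and -0.305, with adjusted p-values of 0.191 and 0.256. Without FA + fluoxetine replicate 3 alone, the dam of low secretory markers, r was -0.414 and -0.288, so the size of both inverse relations rested on it.

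The Golgi pumps of the same class did not hold together. *Atp2c1* and *Atp2c2* had r = 0.603 over 31 libraries (permutation p = 0.0680, adjusted p = 0.204, rho = 0.317, permutation p = 0.101, adjusted p = 0.302). It was 0.252 without the 2 libraries farthest from the *Atp2c1* median, -0.0203 without both libraries that stood apart and -0.0151 without FA + fluoxetine replicate 3 alone, so it rested on that dam. *Atp2a2* and *Atp2c1*, the more widely expressed pumps of their classes, had r = 0.425 (permutation p = 0.0392, adjusted p = 0.137, rho = 0.383, permutation p = 0.0414, adjusted p = 0.207), 0.273 without the 2 libraries farthest from the *Atp2a2* median, and 0.545 without both that stood apart (adjusted p = 0.0543). *Atp2b2* and *Atp2b4* went from r = -0.115 (permutation p = 0.496, adjusted p = 0.744, rho = 0.209, permutation p = 0.252, adjusted p = 0.588) to 0.459 without both (adjusted p = 0.0860). *Atp2b1* and *Atp2c1* went from r = -0.285 (permutation p = 0.332, adjusted p = 0.627, rho = 0.0415, permutation p = 0.840, adjusted p = 0.965) to 0.425 (adjusted p = 0.191). Without the 2 libraries farthest from the median of the first gene, these were 0.178 and 0.218.

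**Figure D3:**
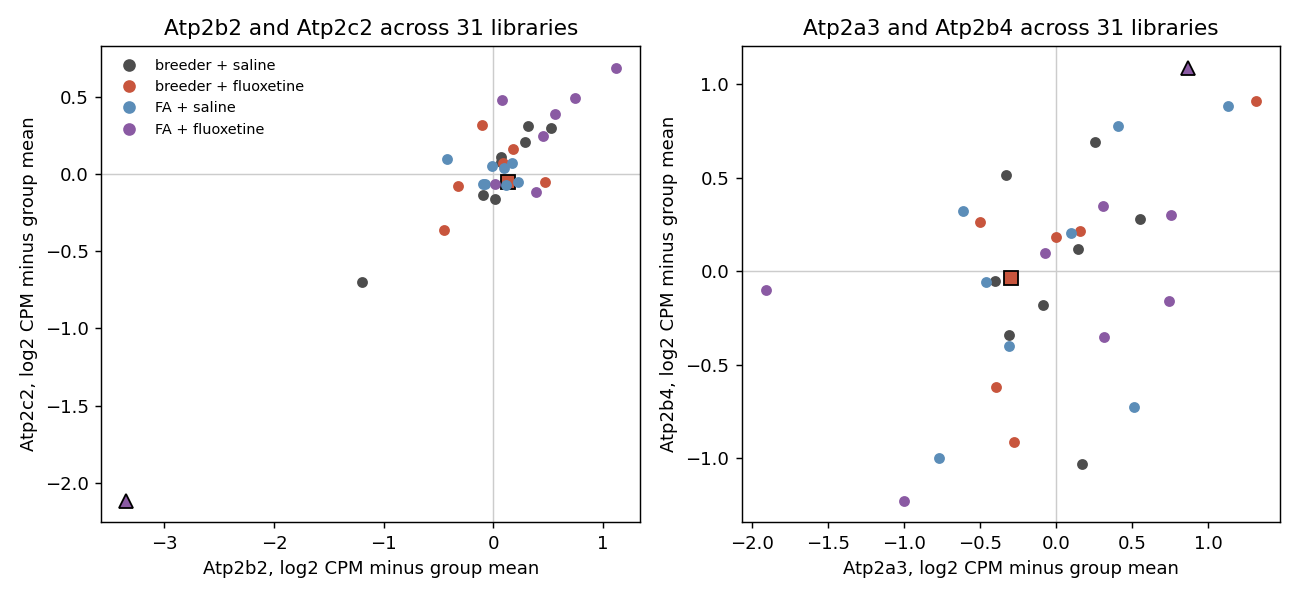
Log2 CPM minus the group mean for *Atp2b2* against *Atp2c2* (left) and *Atp2a3* against *Atp2b4* (right), 1 point per library, coloured by group. The triangle is FA + fluoxetine replicate 3 and the square breeder + fluoxetine replicate 13; Pearson's r is 0.934 on the left, 0.721 without both marked libraries, and 0.507 on the right, 0.461 without them.

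The genes whose level ran most like each pump were read from the same group-centred values over 31 libraries and 14362 genes. For *Atp2b2* they were *Atp2c2*, *Abcg2* (r = 0.926), a milk transporter of the apical membrane, and *Rph3al* (r = 0.924), an effector of secretory vesicle exocytosis. For *Atp2c2* they were *2610021A01Rik* (r = 0.939), *Atp2b2* and *Rph3al* (r = 0.931). *Atp2c1* ran with *Prlr*, the prolactin receptor (r = 0.903), *Perp* (r = 0.895) and *Nbr1*, an autophagy receptor (r = 0.894). Without both libraries that stood apart, *Prlr* was at r = 0.824 with *Atp2c1* and *Abcg2* at r = 0.620 with *Atp2b2*, where it held place 136. *Atp2c2* then held place 22 among the genes most like *Atp2b2*, and *Atp2b2* place 8 among those most like *Atp2c2*.

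The less abundant pumps ran with other genes. *Atp2a2* was closest to *Tbrg1* (r = 0.745), *Golga4*, a golgin (r = 0.705), and *Rdh11* (r = 0.703). *Atp2a3* was closest to *Notch4*, a Notch receptor of endothelium (r = 0.760), *Eln*, elastin (r = 0.734), and *Stac2* (r = 0.721), and *Atp2b4* to *Armcx4* (r = 0.788), *Srsf4*, a splicing factor (r = 0.771), and *Rian*, a long noncoding RNA (r = 0.768). *Atp2b1* was closest to *Ctnna1*, alpha-catenin (r = 0.834), *Cyb5a* (r = 0.816) and *Lgmn*, legumain (r = 0.807). The neighbours of *Atp2b1* held places 329, 640 and 425 without both libraries that stood apart, whereas those of *Atp2a2*, *Atp2a3*, *Atp2b4* and *Atp2c1* stayed within the first 12.

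The promoters of the pair *Atp2a3* and *Atp2b4*, which varied together in these dams, are shown because both have a RefSeq window (250 bases before to 50 after the annotated start, GRCm38.p6). Capitals mark the GC box GGGCGG on either strand, which 35.7% of 32851 RefSeq windows of this length hold. The window of *Atp2a3* (chr11:72960919-72961218, plus strand) is 68.3% G and C and has 5 matches, and that of *Atp2b4* (chr1:133753698-133753997, minus strand) is 47.7% G and C and has 0.
Atp2a3: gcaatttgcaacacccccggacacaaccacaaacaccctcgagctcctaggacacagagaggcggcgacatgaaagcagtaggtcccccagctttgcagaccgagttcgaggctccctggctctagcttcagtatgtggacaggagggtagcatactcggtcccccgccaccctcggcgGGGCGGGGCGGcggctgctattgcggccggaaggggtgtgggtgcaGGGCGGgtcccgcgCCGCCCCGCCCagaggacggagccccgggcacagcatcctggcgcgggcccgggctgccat
Atp2b4: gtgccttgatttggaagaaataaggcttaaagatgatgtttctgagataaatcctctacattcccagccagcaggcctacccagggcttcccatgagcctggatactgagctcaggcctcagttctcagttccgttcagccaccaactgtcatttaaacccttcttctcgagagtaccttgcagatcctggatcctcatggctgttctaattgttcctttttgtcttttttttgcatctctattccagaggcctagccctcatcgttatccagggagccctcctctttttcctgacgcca
Of the 8 pumps, 5 had 9 such windows, and 6 of the 9 held the GC box, against 35.7% of all windows. The palindrome TTCNNNGAA, the letters that STAT5 is known to bind, was in 0 of the 9 and in 8.30% of all windows. *Atp2a2*, *Atp2b3* and *Atp2c2* have no entry.

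The partners of the pumps were described by 8 lists with 52 genes, of which 39 were tested. For fluoxetine 0 of 39 passed the FDR with edgeR's quasi-likelihood test, 4 had an unadjusted p of 0.05 or below (10.3%, against 9.92% of all genes), and 27 were below 0 (46.5% of all genes), with a median log2 fold change of -0.07 (0.02 over all genes). For FA 0 of 39 passed and 2 had an unadjusted p of 0.05 or below (5.13%, against 5.08%), with 17 below 0 (46.1% of all genes) and a median of 0.03 (0.02 over all genes). For the interaction 0 of 39 passed and 0 had an unadjusted p of 0.05 or below (3.84% of all genes), and 29 were below 0 (46.0% of all genes), with a median of -0.16 (0.03 over all genes).

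Partners that act on SERCA and PMCA pumps differed widely in level. *Arln*, an inhibitory micropeptide of SERCA, averaged 29.8 ± 6.91 CPM (SD, n = 31), while *Strit1* was at 0 counts, *Pln*, *Sln* and *Erln* did not pass the filter, and *Mrln* averaged 0.319 CPM. *Calr*, a calcium-storing chaperone of the endoplasmic reticulum, averaged 133 ± 51.8 CPM, and *Bsg*, an accessory subunit of PMCA pumps, 125 ± 21.4 CPM. *Nherf1*, a scaffold that holds PMCA2 at the apical membrane, had a mean of 90.5 ± 19.0 CPM under saline (SD, n = 16) and 73.5 ± 19.9 under fluoxetine (SD, n = 15), a difference of -0.30 in log2 (SE 0.136, unadjusted p = 0.0350, adjusted p = 0.478). Without both libraries that stood apart the difference was -0.23 (edgeR unadjusted p = 0.0526).

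Calcium release and entry genes stood around the pumps with their own values. *Nucb2*, a calcium-binding nucleobindin, was the most abundant gene of the Golgi list at 276 ± 59.3 CPM (SD, n = 31), and *Orai1*, the store-operated channel, led the entry list at 65.4 ± 15.8 CPM. Of the IP3 receptors, which release the calcium that SERCA pumps store, *Itpr3* was the most abundant at 21.9 CPM (11.5 to 30.6). *Itpr2* averaged 10.8 ± 2.15 CPM under saline and 16.0 ± 9.53 under fluoxetine, with a log2 fold change of 0.56 (SE 0.175, unadjusted p = 0.00302, adjusted p = 0.325), and 0.36 without both libraries that stood apart. *Itpr1* had a log2 fold change of 0.26 for fluoxetine (SE 0.123, unadjusted p = 0.0420, adjusted p = 0.490).

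Among mitochondrial genes, *Smdt1*, a subunit of the calcium uniporter, was the most abundant at 44.3 ± 9.86 CPM (SD, n = 31). *Micu2*, a gatekeeper of the uniporter, averaged 9.30 ± 1.34 CPM under saline and 7.76 ± 1.15 under fluoxetine, a log2 fold change of -0.27 (SE 0.0883, unadjusted p = 0.00449, adjusted p = 0.357). *Slc8b1*, the mitochondrial sodium-calcium exchanger, averaged 11.8 ± 3.95 CPM on the breeder diet and 8.67 ± 2.21 on the FA diet, a log2 fold change of -0.45 for FA (SE 0.134, unadjusted p = 0.00191, adjusted p = 0.933). Of the cytosolic buffers, *Calb1* and *Calb2* were at 0 counts in all 31 libraries, and *Pvalb*, a buffer of fast muscle, ranged from 0 to 633 CPM.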

How the data were processed

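RNA of mammary gland from 31 dams was measured, 1 library each. Per the submitters' notes and the methods of the study, the authors used FastQC 0.11.7 and Trim Galore 0.4.4, aligned reads with HISAT2 to the GRCm39 genome and assigned them to genes by HTSeq (intersection-nonempty). The annotation release and strand setting are not given in the sources used here. The deposited values are raw counts per Ensembl gene. Symbols, positions and lengths came from GENCODE vM39, which gave no symbol for 667 of the 55379 genes.

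Counts were filtered with filterByExpr by group, which left 14362 genes, normalized by TMM and fitted with edgeR 4.0.16 in R 4.3.3 as 4 group means with robust dispersions. Fluoxetine (averaged over diets), FA (averaged over injections) and their interaction were tested as contrasts by quasi-likelihood, with Benjamini-Hochberg adjustment over all genes and an FDR of 10%. The SE of a log2 fold change is its size over the square root of F. CPM used effective library sizes, and log2 CPM a prior count of 2. The common dispersion was 0.169, so variation among dams, more than depth, limited precision except at low counts. Within groups the chi-square over its degrees of freedom was at least 15.8, far above counting noise, and each library was taken as 1 dam. Functions were tested on simulated data. Python 3.11.15 with scipy 1.17.1 was used for correlations.

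Alternatives chosen before the data were examined were the likelihood ratio test, DESeq2 1.42.0, no filter, a filter of 1 CPM reached by 7 libraries, normalization by upper quartile or by RLE, removal of the 20 most abundant genes, a replicate block, an additive model, effects within 1 level of the other factor, each library left out, longest transcript as length, and uncentred correlations. Leaving out both libraries that stood apart, by more than 10 percentage points from the median share of the 20 most abundant genes, was chosen for the fits after seeing the data. The pumps and lists were chosen with earlier results of these data known. Named, with some genes under this rule left out, are the 8 pumps, the 3 genes most like each, list genes past the FDR or with an unadjusted p of 0.05 or below for fluoxetine or FA, the gene of most counts per list, and, of marker lists, the most abundant gene and those at 0. *Pln*, *Sln*, *Erln*, *Mrln* and *Atp2a1* were named after their values were seen.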

Additional observations from a re-analysis of the deposited data

Results flagged for a closer look

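Within each group of 7 or 8 dams, the highest or lowest dam was compared with the range of its group (Dixon's ratio), for the CPM of the pumps, the leading share of each class and the share of counts of the 20 most abundant genes. Of 47 groups of values, 13 held such a dam. Chance gives about 1 in 20 only for separate groups of normally distributed values. Here the class shares were computed from the same pump levels, and *Atp2b3* had counts in only 8 libraries. The 13 of 47 is therefore not read as an excess over chance.

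FA + fluoxetine replicate 3 held 43.1% of its counts in the 20 most abundant genes, against 73.0% to 79.2% in the rest of its group. It had *Atp2b1* at 14.1 CPM from 805 counts, against 3.82 to 7.80 CPM, and *Atp2b2* at 47.9% of the PMCA level, against 95.9% to 98.3%. The share of the 20 most abundant genes was also low in breeder + fluoxetine replicate 13 (61.7%, others 75.0% to 79.7%), FA + saline replicate 3 (71.0%, others 77.7% to 82.0%) and breeder + saline replicate 11 (73.3%, others 75.9% to 78.3%).

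Breeder + fluoxetine replicate 9 had *Atp2a3* at 7.66 CPM from 114 counts, against 2.11 to 3.39 CPM in the rest of its group, and *Atp2a2* at 57.2% of the SERCA level, against 81.1% to 87.9%. *Atp2b2* made up 93.8% of the PMCA level in breeder + saline replicate 3 (others 96.2% to 98.0%) and 94.8% in breeder + fluoxetine replicate 2 (others 96.0% to 96.9%). *Atp2c2* made up 86.3% of the SPCA level in FA + fluoxetine replicate 2 (others 92.0% to 96.5%). *Atp2b3* was at 0.247 CPM in breeder + saline replicate 11 from 7 counts and at 0.236 CPM in breeder + fluoxetine replicate 5 from 6 counts, against 0 to 0.0881 CPM and 0 to 0.0857 CPM in the rest of these groups.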

How the results depend on the processing

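The number of pumps called was 0 for fluoxetine, FA and the interaction under each alternative run. In 882 fits of single pumps the lowest adjusted p was 0.179, and 27 fits gave a log2 fold change of the opposite sign, for pumps whose change was not called; the cause was not tested. Deviations of same-numbered dams in different groups had a median correlation of 0.08 (-0.22 to 0.43, 28 pairs, 12 above 0.1). For dams of different number the median was -0.00699. Whether the replicate numbers mark a pairing of dams was not tested. With the replicate block the log2 fold change for fluoxetine was -0.11 for *Atp2a3* and -0.15 for *Atp2b4*, for FA -0.0435 for *Atp2b1*, 0.14 for *Atp2b2*, 0.12 for *Atp2b4*, 0.0521 for *Atp2c1* and 0.0397 for *Atp2c2*, and for the interaction 0.32 for *Atp2b4*. With the block the pump at an unadjusted p of 0.05 or below was *Atp2b2*, at -0.62 for fluoxetine (edgeR adjusted p = 0.708), and no longer *Atp2a2*, at -0.23 (adjusted p = 0.783), while *Atp2c1* was at -0.38. Within the FA diet, fluoxetine gave -0.0124 for *Atp2a3*, 0.13 for *Atp2b1* and -0.0295 for *Atp2b4*, and within the breeder diet 0.11 for *Atp2c2*. Within saline, FA gave -0.18 for *Atp2b1*, 0.0745 for *Atp2b4* and 0.0826 for *Atp2c2*, and within fluoxetine 0.00395 for *Atp2a2* and 0.0184 for *Atp2c1*. Without both libraries that stood apart, *Atp2c2* was at 0.0438 for fluoxetine and 0.00115 for FA, and *Atp2b1* at -0.0836 for FA. In fits that each omitted a single library, fluoxetine gave log2 fold changes between -0.0167 and 0.184 for *Atp2b4* and between -0.0804 and 0.0287 for *Atp2c2*. For FA they lay between -0.0977 and 0.0833 for *Atp2b1*, between -0.178 and 0.0312 for *Atp2b4*, between -0.171 and 0.00547 for *Atp2c1* and between -0.108 and 0.01 for *Atp2c2*, and for the interaction between -0.0617 and 0.286 for *Atp2c1*. The sign changed without FA + fluoxetine replicate 3 in 5 of these 7, without breeder + fluoxetine replicate 9 for *Atp2b4* with FA and without FA + fluoxetine replicate 2 for the interaction of *Atp2c1*. The correlation of *Atp2c1* with *Atp2c2* was -0.0203 without both libraries that stood apart. With group means kept, 7 pump pairs passed the FDR instead of 4. Genes called for fluoxetine were 3 with the quasi-likelihood test, 45 with the likelihood ratio test, 70 with DESeq2, 1 without a filter and 0 with the replicate block. With a single library omitted they were 0 to 19, most without breeder + saline replicate 4 (19), breeder + fluoxetine replicate 7 (16), FA + fluoxetine replicates 2 (11) and 10 (7) and saline replicates 3 on either diet (5 each), and fewest without breeder + fluoxetine replicate 8 (0) and FA + saline replicate 2 (1).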
